A study of Mus musculus with 18 samples.

Results

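Embryoid bodies of a single reporter clone were compared between the batches labelled 1 and 2, on the days of differentiation labelled 5 and 6. The 4 batch 1 arrays and the 4 batch 2 arrays were chosen by their titles, out of 18 arrays in the series, and each batch gave a GFP-positive and a GFP-negative array on each day. The cells were mouse D3 embryonic stem cells that carried GFP driven by an enhancer of Nkx2-5 and the hsp68 minimal promoter, so GFP marks cells in which that enhancer is active, and both batches carried the same transgene. They were differentiated without leukemia inhibitory factor as hanging droplets and then in suspension with ascorbic acid, and were sorted for GFP. The labels do not say what separates a batch, and each batch is 1 series of arrays, so the 4 pairs matched by day and fraction measure how well a difference repeats within these cultures and not how often it would recur between cultures. The sorted arrays of days 7 and 8, 8 in all, entered the same fit. The 2 arrays of G418-selected cardiomyocytes did not. They entered the choice of probe set for each gene, the filter, the offset, an alternative fit with all 18 arrays and a closing description.

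Embryoid bodies pass through steps like those of the early embryo. Pluripotent cells first take on an epiblast state, then express primitive streak genes as mesoderm and endoderm form, and mesoderm goes on to heart, vessels and blood. In the mouse, embryonic globins mark primitive red cells, and sarcomere genes appear soon after the cardiac transcription factors. The comparison asked which of these programmes stood further along in one batch at the same labelled day, and whether the difference was instead a uniform shift of all genes.

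Values are MAS5 signals from mouse Affymetrix arrays, scaled by the authors so that each array had the same trimmed mean. Differences are given as log2(signal + 6.8), batch 1 minus batch 2, averaged over the 4 pairs, with the standard error (SE) of a limma fit to the 16 sorted arrays. That fit pools the spread of the early and the late pairs, so the SE is not the spread of a gene's 4 early pairs. A gene was called where its p, adjusted over 13379 genes by the Benjamini-Hochberg method, was under 0.05. Signals are listed in the order day 5 GFP-positive, day 5 GFP-negative, day 6 GFP-positive and day 6 GFP-negative. The files used hold no detection calls, and signals below 6.8 units lie under the 25th percentile of all values, so differences from them are compressed by the offset. These are bulk measurements, in which fewer cells of a type and less RNA per cell cannot be told apart.

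The batches differed at the same labelled day in 1117 of 13379 genes (8.35%), of which 804 were higher in batch 1 (6.01%) and 313 were lower (2.34%). The sign was the same in 4 of 4 pairs for 2166 genes that were higher in batch 1 (16.2%) and for 1802 that were lower (13.5%). The difference left after scaling was not uniform. Each array had been scaled to the same trimmed mean, which removes most of a shift shared by all genes. The values below therefore cannot show whether there was such a shift before scaling. The median difference over all genes was 0.007, with quartiles of -0.197 and 0.246, and 51.0% of genes lay above 0. In single pairs the median was 0.002, -0.03, 0.066 and 0.004, and across 10 bins of mean signal it lay between -0.085 and 0.066. Setting every array to the same median moved the median of all genes to -0.119 and the split of calls to 548 higher and 438 lower, so the share of higher calls depends on the scaling. Leaving out the day 5 GFP-positive array of batch 1 or of batch 2 left 392 or 390 calls, and leaving out the day 5 GFP-negative array left 654 or 653. The fit holds a mean for each pair, so leaving out either array of a pair drops that pair's difference. The 8 fits that each leave out 1 early array therefore repeat 4 checks, 1 for each pair. The GFP-positive and GFP-negative cells of a day and batch were sorted fractions and may share a culture. With each day's fractions averaged, 329 genes were called (2.46%), 279 higher and 50 lower in batch 1. By list that fit called 15 sarcomere, 9 blood, 6 matrix, 5 endothelial, 4 cardiac transcription factor and 3 endoderm genes higher, and 3 BMP, Nodal, WNT and FGF, 2 streak and 2 pluripotency genes lower, with the list medians unchanged by construction.

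Control probe sets moved with the batch. The bacterial BioB transcript, added at hybridisation, averaged 132.1 to 207.5 units on the 4 batch 1 arrays and 224.0 to 296.6 units on the 4 batch 2 arrays, without overlap. The brightest of them, Cre, lay at 2858 to 4296 units in batch 1 and at 4342 to 5383 units in batch 2. The ratio of 3' to 5' signal of Gapdh, a measure of RNA integrity and amplification, was 1.129 to 1.241 in batch 1 and 1.208 to 1.568 in batch 2. Of 32 housekeeping genes, 1 was higher and 4 were lower in batch 1, against 6.01% and 2.34% of all genes tested. Their median was -0.176, and without either day 5 pair 0 were lower. The part of these technical measures in the gene differences was not tested.

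The primitive streak list, which also holds early mesoderm genes, was lower in batch 1. Of 24 tested members 9 were called lower and 0 higher, and the median was -1.07, against 0.007 for all genes. Mesp1, a transcription factor of the earliest heart and vessel precursors, had 37.3, 112.2, 24.3 and 37.2 units in batch 1 and 1527, 2463, 82.1 and 186.4 units in batch 2. Every batch 1 value stood below its batch 2 partner, and the gap was widest on day 5. The difference was -3.29 ± 0.49 (SE, 4 pairs; adjusted p = 0.00277). Eomes, a T-box factor required for streak mesoderm and endoderm, had 29.5, 154.6, 21.5 and 47.0 units in batch 1 and 2226, 1867, 89.7 and 168.3 units in batch 2 (-3.24 ± 0.58, adjusted p = 0.00765). Both genes were thus near their day 7 and 8 level in batch 1 on day 6, as the plot of signals by day shows.

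Other streak members followed the same order. Lhx1, a homeobox gene of the streak and organizer, was lower in batch 1 (-2.25 ± 0.36), and so was Evx1, a homeobox gene of the posterior streak (-2.23 ± 0.45). Tbx3, Mesp2, Axin2, Gsc and Kdr were the further called members, with differences between -1.76 (Tbx3) and -0.73 (Kdr). Kdr, a VEGF receptor that marks mesoderm and later endothelium, had 1178.8, 542.5, 1151.5 and 494.1 units in batch 1 and 3145, 842.8, 1352 and 780.0 units in batch 2. It was clearly expressed in both batches and was lower in batch 1 (-0.73 ± 0.18, adjusted p = 0.0347). T, the classical streak marker, was not among the genes tested. Without either day 5 GFP-negative or either day 5 GFP-positive array 5 streak genes were called, and with day 6 alone 1 was, with a median of -0.55. Evx1 kept its call in 4 and Kdr in 2 of the 8 fits that each left out 1 array.

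**Figure D1:**
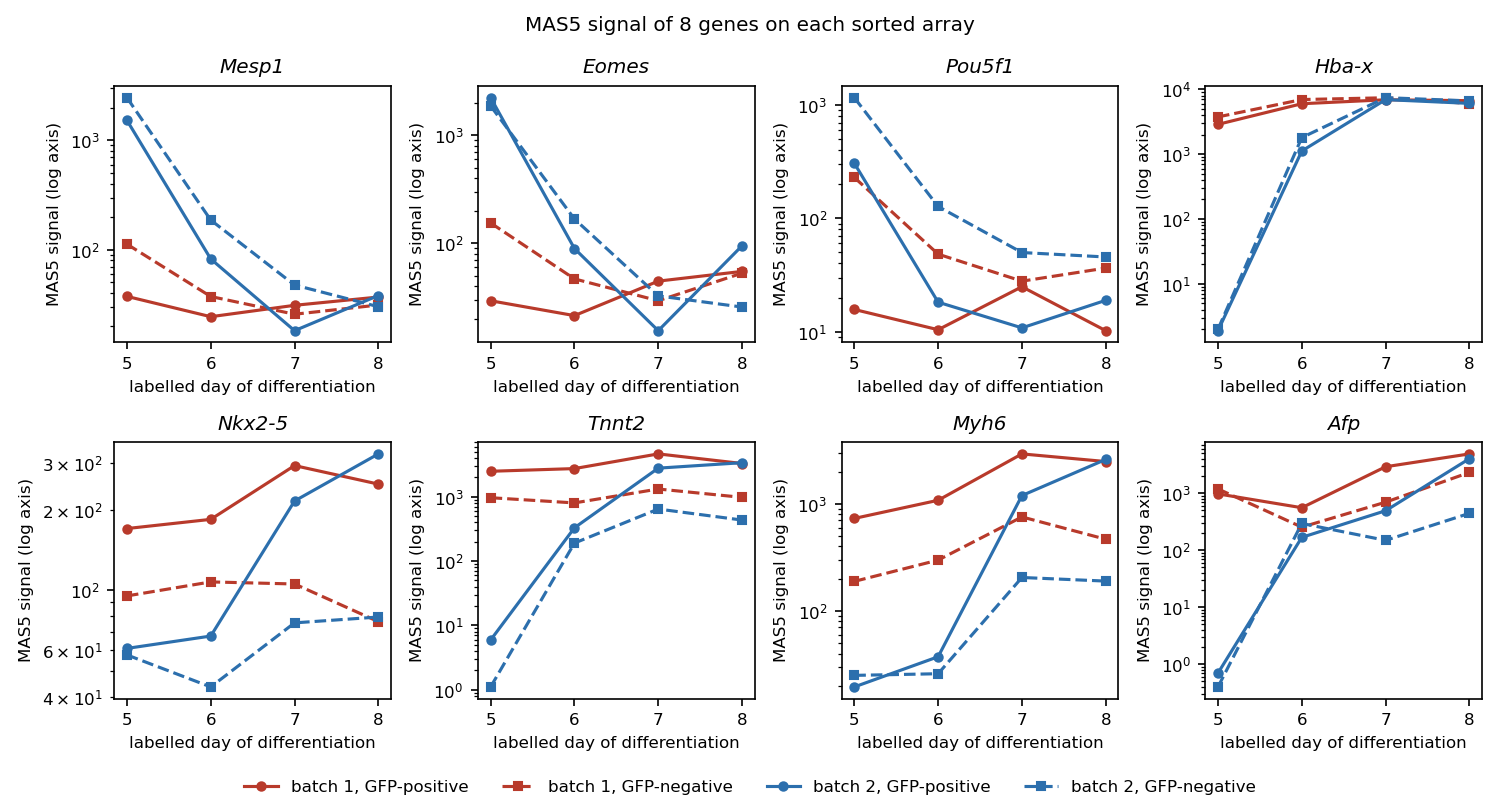
MAS5 signal (log axis) of 8 genes against the labelled day on each of the 16 sorted arrays. Red is batch 1 and blue is batch 2; circles with solid lines are GFP-positive and squares with dashed lines GFP-negative cells. Mesp1 and Eomes were lower, and Hba-x, Tnnt2 and Myh6 higher, in batch 1 on day 5 and day 6, and for these genes the lines of the batches lie closer on days 7 and 8. For Afp the batches lay further apart on day 7 than on day 6 in both fractions.

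Pluripotency genes stood lower in batch 1 as well, with 5 of 22 called lower, 0 higher and a median of -0.604. Dppa5a, a gene of undifferentiated stem cells, had 38.3, 402.2, 17.0 and 155.8 units in batch 1 and 1201, 2717, 144.9 and 485.7 units in batch 2. Its difference of -2.94 ± 0.37 (adjusted p = 0.00113) was the largest among the 5. Pou5f1, which encodes Oct4, the core regulator of pluripotency, had 15.7, 229.6, 10.4 and 48.3 units in batch 1 and 306.3, 1161, 18.2 and 127.2 units in batch 2 (-1.98 ± 0.44, adjusted p = 0.0205). In both batches the GFP-negative cells held more Pou5f1 than the GFP-positive cells of the same day. The zinc finger factor Sall4 (-1.08), the RNA-binding protein Lin28a (-0.79) and the corepressor Trim28 (-0.36) were also lower in batch 1. The list had 3 lower calls without either day 5 pair, and Pou5f1 kept its call in 4 of the 8 fits that each left out 1 array.

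The other core factors did not pass the test. Nanog had 5.6, 115.0, 8.0 and 15.7 units in batch 1 and 30.3, 624.9, 4.3 and 77.5 units in batch 2 (-1.36 ± 0.46, adjusted p = 0.0953). Sox2, which is shared by pluripotent and neural cells, lay in the opposite direction in 3 of 4 pairs, with 65.3, 517.9, 66.0 and 212.0 units in batch 1 and 25.3, 528.6, 22.6 and 189.2 units in batch 2 (0.65 ± 0.26, adjusted p = 0.156). Of 13 epiblast genes 2 were lower and 0 higher, against 2.34% and 6.01% of all genes tested. The 2 were Lef1, a WNT effector (-1.29 ± 0.20), and the DNA methyltransferase gene Dnmt3b (-0.70 ± 0.12). The epiblast median was -0.424, and it was -0.218 without either day 5 GFP-negative array and -0.829, with 4 lower calls, without either day 6 GFP-positive array.

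Among 39 genes of BMP, Nodal, WNT and FGF signalling 9 were lower in batch 1 and 0 were higher, with a median of -0.596. The list also holds Cyp26a1, an enzyme that degrades retinoic acid and a member of none of these 4 pathways. Cyp26a1 had 466.7, 516.8, 294.2 and 156.1 units in batch 1 and 3783, 2865, 447.9 and 503.8 units in batch 2 (-1.92 ± 0.30, adjusted p = 0.00307). The ligand Fgf3 (-1.63 ± 0.33), the activin antagonist Fst (-1.38 ± 0.36) and the ligand Wnt5b (-1.36 ± 0.34) were lower, and so were the WNT feedback gene Axin2, the WNT enhancer Rspo3 and the BMP targets Msx1 and Msx2. Axin2 is also counted among the called streak genes. Fgf3 kept its call in 6, Fst in 2 and Wnt5b in 0 of the 8 fits that each left out 1 array. The count of lower calls was 4 without the day 5 GFP-positive or the day 6 GFP-negative pair. Of 17 Notch genes, the ligand Dll3 (-1.84 ± 0.41) and the target Hes1 (-1.18 ± 0.26) were lower, and neither was called when any 1 of the 4 day 5 arrays was left out. Over all genes tested 2.34% were called lower.

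Heart genes were higher in batch 1. Of 24 cardiac transcription factors and cofactors, 9 were called higher and 0 lower, with a median of 0.738. With the mean of all probe sets of a gene in place of the chosen one, 5 were called higher and the median was 0.476. Nkx2-5, the homeobox gene whose enhancer drives the reporter, had 170.0, 95.2, 184.0 and 107.4 units in batch 1 and 60.6, 57.3, 67.4 and 43.5 units in batch 2. Every batch 1 value, the GFP-negative ones included, exceeded every batch 2 value, and the GFP-positive array was the higher of each sorted pair in both batches. The difference was 1.15 ± 0.18 (adjusted p = 0.00381). Mef2c, a factor of the heart tube, had 625.9, 449.0, 876.7 and 587.9 units in batch 1 and 28.1, 38.4, 191.4 and 167.8 units in batch 2 (2.86 ± 0.32, adjusted p = 0.000519).

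Tbx5, a T-box factor of the first heart field, had 85.5, 27.7, 67.0 and 60.4 units in batch 1 and 4.7, 2.8, 7.2 and 7.3 units in batch 2 (2.38 ± 0.53, adjusted p = 0.0206). Myocd, the coactivator of muscle genes, and Smyd1, a methyltransferase of striated muscle, were both higher by 2.14 (SE 0.30 and 0.35). Gata5, Zfpm2, Hopx and Mef2a were also called. Several early cardiac regulators were not called. Gata4 had 167.4, 134.6, 153.0 and 118.0 units in batch 1 and 393.3, 280.1, 148.0 and 173.1 units in batch 2 (-0.68 ± 0.25, adjusted p = 0.127). For Isl1, a second heart field factor, the difference was 0.98 ± 0.31 (adjusted p = 0.0771), and for Hand2 it was 1.17 ± 0.35 (adjusted p = 0.0645). Tbx5 kept its call in 4 of the 8 fits that left out 1 array.

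Sarcomere genes stood higher, with 22 of 35 called higher in batch 1, 0 lower and a median of 1.44. Tnnt2, cardiac troponin T of the thin filament, had 2482, 963.6, 2733 and 799.6 units in batch 1 and 5.9, 1.1, 327.9 and 189.8 units in batch 2. The batch 2 signals on day 5 were among the lowest on the arrays, whereas the batch 1 signals of that day were close to those of its day 6. The difference was 4.91 ± 0.74 (adjusted p = 0.00285). Myh6, the alpha myosin heavy chain of the thick filament, had 729.5, 188.5, 1077.9 and 298.0 units in batch 1 and 19.5, 25.0, 37.3 and 25.9 units in batch 2 (3.82 ± 0.36, adjusted p = 0.000141).

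For Myh6 the gap was as wide on day 6 (3.92) as on day 5 (3.71). Myh7, the beta chain, was higher by 3.78 ± 0.50, though these near-identical myosins may share signal on the array. Actc1, cardiac actin, had 3062, 1398.7, 4280.2 and 2045.6 units in batch 1 and 411.8, 318.7, 239.6 and 177.6 units in batch 2 (3.15 ± 0.26, adjusted p = 0.000102). The ventricular light chain Myl2 (3.47 ± 0.35), the light chain Myl3 (3.64 ± 0.54), the slow troponin I gene Tnni1 (3.62 ± 0.64) and titin, Ttn (3.48 ± 0.32), lay in the same range. Myl7, the atrial light chain, had 2144, 1011.2, 2262.6 and 1101.8 units in batch 1 and 1639, 696.4, 409.2 and 273.1 units in batch 2, so it was bright in both, and its difference was smaller (1.34 ± 0.31, adjusted p = 0.0233), with a call in 4 of the 8 fits that left out 1 array. The count of sarcomere calls lay between 20 and 22 in the fits that each left out 1 array, and was 17 with day 6 alone.

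Of 24 calcium handling and ion channel genes, 2 were higher in batch 1, close to the 6.01% of all genes: the ryanodine receptor gene Ryr2 (1.94 ± 0.36) and the calcium-binding protein gene Hrc (1.00 ± 0.27). Hrc kept its call in 2 of the 8 fits that left out 1 array, and the list median was 0.157. Ryr2 had 77.9, 30.1, 82.3 and 48.3 units in batch 1 and 2.5, 6.4, 10.6 and 26.8 units in batch 2. Nppa, the atrial natriuretic peptide gene, stood at 10.2 to 20.5 units in batch 1 and 8.3 to 17.4 units in batch 2 and was not called (0.04 ± 0.27, adjusted p = 0.959). Of 17 natriuretic and muscle energy genes 7 were higher, led by the nuclear receptor gene Esrrg (2.25 ± 0.22) and the muscle phosphoglycerate mutase gene Pgam2 (2.04 ± 0.39), and Ldhb was lower (-0.85), a call left only when a day 6 GFP-positive array was the one left out. The count of 7 became 1 without the day 5 GFP-positive pair and 3 without the day 5 GFP-negative pair. It was also 3 with the mean of all probe sets of a gene.

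**Figure D2:**
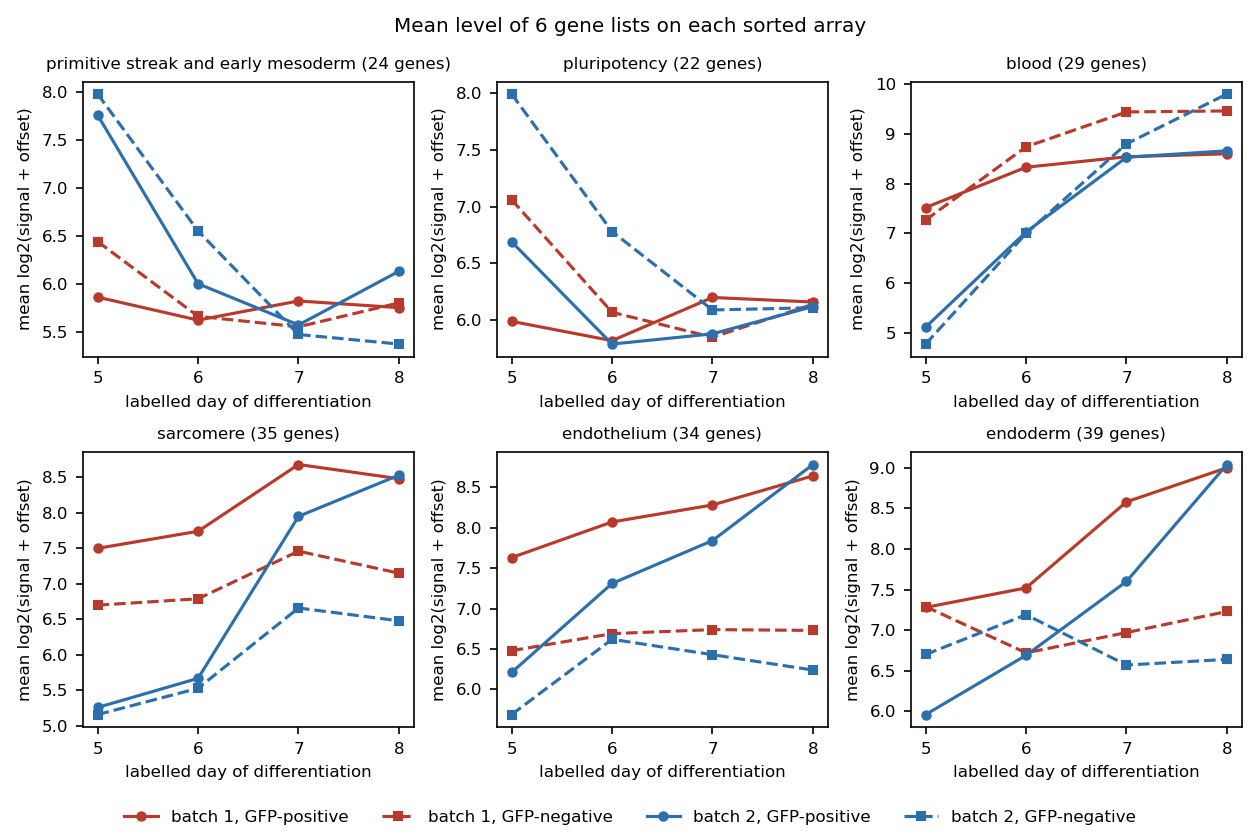
Mean log2(signal + 6.8) of the tested members of 6 gene lists against the labelled day, one line per batch and fraction, coloured as in the plot of signals by day. On day 5 the streak and pluripotency lists lay lower, and the blood, sarcomere, endothelium and endoderm lists higher, in batch 1 in both fractions; the endoderm list was lower in GFP-negative batch 1 cells on day 6.

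Blood genes were higher in batch 1, with 16 of 29 members called higher, 0 lower and a list median of 1.65. Hba-x, the embryonic zeta globin, had 2874, 3743, 5979 and 6933 units in batch 1 and 1.9, 2.0, 1118 and 1796 units in batch 2. Among the sorted arrays it was at the floor on day 5 of batch 2 only. The difference was 5.37 ± 0.96 (adjusted p = 0.00745). Hbb-y, embryonic epsilon globin, had 141.5, 232.1, 739.5 and 3094 units in batch 1 and 0.9, 0.7, 75.7 and 73.6 units in batch 2 (4.43 ± 0.32, adjusted p = 4.97e-05).

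Hbb-bh1, another embryonic globin, separated the batches on day 5 and not on day 6. It had 7022, 7282, 8248 and 9231 units in batch 1 and 79.5, 40.8, 8821 and 10113.6 units in batch 2, and over the 4 pairs it was not called (3.34 ± 1.04, adjusted p = 0.0735). The highest signal of the series was 13341.1 units, and whether differences are compressed among signals this bright was not tested. Globin genes resemble each other, so probe sets may share signal. Genes outside the globins gave the same order: Hemgn, a nuclear protein of blood precursors (4.39 ± 0.28), Slc4a1, the anion exchanger of red cells (3.74 ± 0.34), and Alas2, the heme synthesis enzyme of red cells (3.66 ± 0.39). Among the regulators, Klf1 was higher by 3.06, Nfe2 by 2.25 and Gata1 by 1.65 ± 0.36. Gata1 had 1132, 700.5, 1125 and 2077 units in batch 1 and 148.4, 120.1, 1106 and 879.8 units in batch 2.

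The macrophage markers Ptprc and Csf1r were not called over the 4 pairs. Ptprc had 5.9, 1.8, 52.7 and 67.0 units in batch 1 and 3.5, 5.7, 1.0 and 4.1 units in batch 2 (adjusted p = 0.188), and Csf1r had 75.9, 49.7, 262.0 and 268.9 units in batch 1 and 35.3, 35.2, 24.4 and 57.1 units in batch 2 (adjusted p = 0.0590). Among these 8 arrays both were highest on day 6 of batch 1, and in the fit with a batch term per day their day 6 differences were 2.85 for Ptprc (adjusted p = 0.00347) and 2.61 for Csf1r (adjusted p = 0.00637). The hematopoietic signalling genes Plek (4.06 ± 0.34) and Csf2rb (3.88 ± 0.36) were among the 15 genes with the largest positive difference. Csf2rb has a close paralog, and its signal is uncertain for that reason.

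Of 34 endothelial genes 13 were higher in batch 1 and 1 was lower, the apelin receptor gene Aplnr (-0.71), with a list median of 0.697. The shares over all genes tested were 6.01% higher and 2.34% lower. Mmrn2, a matrix protein of vessels, had 375.6, 68.7, 658.5 and 135.1 units in batch 1 and 15.6, 6.2, 134.9 and 50.6 units in batch 2 (2.54 ± 0.37, adjusted p = 0.00235). The junction protein gene Cldn5 (1.72 ± 0.25), the transcription factor gene Erg (1.76 ± 0.48) and the receptor genes Tie1 (1.71 ± 0.43) and Tek (1.65) were higher. Erg kept its call in 4 of the 8 fits that left out 1 array, and Aplnr lost it without either day 5 GFP-negative array. Pecam1 had 54.6, 26.1, 63.1 and 35.6 units in batch 1 and 16.8, 2.2, 71.0 and 41.5 units in batch 2, was higher in batch 1 in 2 of 4 pairs, and was not called (adjusted p = 0.219). Cdh5, the endothelial cadherin gene, was not called either (0.86 ± 0.32, adjusted p = 0.134). Without the day 5 GFP-negative pair 6 endothelial genes were called higher, without the day 5 GFP-positive pair 7, and with day 6 alone 2.

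Of 39 endoderm genes tested, 6 were higher in batch 1 and 1 was lower, with a median of 0.358. Over all genes tested 6.01% were called higher and 2.34% lower. Afp, alpha-fetoprotein of visceral endoderm and fetal liver, had 977.3, 1194, 558.6 and 254.9 units in batch 1 and 0.7, 0.4, 168.7 and 295.5 units in batch 2 (3.97 ± 1.03, adjusted p = 0.0383). The GFP-negative pair of day 6 went the other way, and Afp kept its call in 4 of the 8 fits that left out 1 array. Rbp4, the retinol carrier gene (2.35 ± 0.33), Apoa1 (2.40 ± 0.32) and Apob, apolipoprotein genes, and Dab2, an endocytic adaptor of extraembryonic endoderm, were higher. Ttr, the thyroxine carrier gene, resembled Afp but missed the threshold (3.33 ± 0.93, adjusted p = 0.0511). Cxcr4, a receptor of streak-stage mesendoderm and definitive endoderm, was lower (-1.83 ± 0.27). Amn, a visceral endoderm marker, was not called (-0.26 ± 0.37, adjusted p = 0.728). The 6 higher calls became 2 without either day 5 pair and 11 without the day 6 GFP-negative pair.

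Matrix and smooth muscle genes were higher in batch 1 where they were called, apart from Fbln2 (-1.43). Of 33 fibroblast and matrix genes 7 were higher and 1 was lower (median 0.470), and of 23 smooth muscle and epicardial genes 3 were higher and 0 lower (median 0.407). Among all genes tested 6.01% were called higher and 2.34% lower. Col3a1, a fibrillar collagen gene, had 263.0, 171.2, 717.9 and 1259 units in batch 1 and 0.6, 2.2, 69.0 and 123.2 units in batch 2 (4.01 ± 0.38, adjusted p = 0.000137). Postn, periostin of mesenchyme and heart valves, was higher by 3.24 ± 0.30, and Acta2, smooth muscle actin, which early heart muscle also expresses, by 1.98 ± 0.30. Of the fibroblast and feeder cell markers, Lum was called (1.68 ± 0.41), whereas Col1a1 (0.97 ± 0.35, adjusted p = 0.118) and Thy1 (-0.53 ± 0.24, adjusted p = 0.208) were not. Without the day 5 GFP-negative pair 4 matrix genes were called higher, and Fbln2 was not called without either day 5 pair. Lum kept its call in 2 of the 8 fits that left out 1 array. The 3 smooth muscle and epicardial calls became 1 without either GFP-positive pair. Feeder cells had been removed before differentiation, and any part of residual feeders in these values was not tested.

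Neural genes showed no common direction. The shares called over all genes tested were 6.01% higher and 2.34% lower. Of 23 tested neuroectoderm and neuron genes 2 were higher, 2 were lower and the median was -0.215, which was -0.0153 without either day 5 GFP-positive array. The lower count was 1 when any day 5 array was left out and 3 without either day 6 GFP-positive array. Pax6, a regulator of neural progenitors, had 30.2, 26.6, 52.6 and 33.9 units in batch 1 and 5.1, 5.3, 6.8 and 20.9 units in batch 2 (1.45 ± 0.26, adjusted p = 0.00810), and the growth cone protein gene Gap43 was higher by 1.62 ± 0.28. Fabp7, a lipid carrier of neural progenitors, was lower (-2.31 ± 0.41), as was Dll3 (-1.84 ± 0.41). Tubb3 was not called (-0.39 ± 0.36, adjusted p = 0.565), and Sox1 was not among the genes tested. Of 10 trophoblast genes only the factor gene Tead4 was called, and it was lower (-1.61 ± 0.30).

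The lists of cell cycle, metabolism and stress genes had medians between -0.186 and 0.154. Their counts stand beside 6.01% of all genes called higher and 2.34% called lower. Of 35 replication and mitosis genes 2 were lower, Plk1 (-0.40 ± 0.11) and Mcm7 (-0.36 ± 0.09), and the median was -0.114. Of 31 respiratory chain genes 3 were lower, Ndufs4, Ndufa4 and Cox7c, by 0.64 to 0.72 on the log2 scale (median -0.111), and of 19 cholesterol synthesis genes 2 were lower (Sc5d and Hmgcs1, median -0.186). Of 28 immediate early and heat shock genes 6 were higher, among them Rhob (1.00 ± 0.16) and Egr1 (0.68 ± 0.15), with a median of 0.154 and with 2 calls left without either GFP-positive pair. Of 29 amino acid and unfolded protein response genes 4 were higher, led by Trib3 (1.25 ± 0.23), and of 27 hypoxia and glycolysis genes 4 were higher, led by hexokinase 1, Hk1 (1.35 ± 0.28). Most of these small counts fell when 1 array was left out. The replication and mitosis count was 0 when any array other than the day 6 GFP-negative ones was left out, and the cholesterol count was 0 when any GFP-positive array was. The respiratory chain count was 2 in each such fit. The hypoxia count was 1 without either day 5 GFP-positive array, and the amino acid count was 2 when any day 5 array was left out. Of 25 interferon response genes only B2m was called (1.15 ± 0.32), in 2 of the 8 fits that left out 1 array. Among 17 imprinted growth genes Dlk1 (2.38 ± 0.33) and Grb10 were higher and Phlda2 (-1.30 ± 0.15) and Peg3 were lower, with Grb10 called in 4 and Peg3 in 2 of the 8 fits that left out 1 array.

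**Figure D3:**
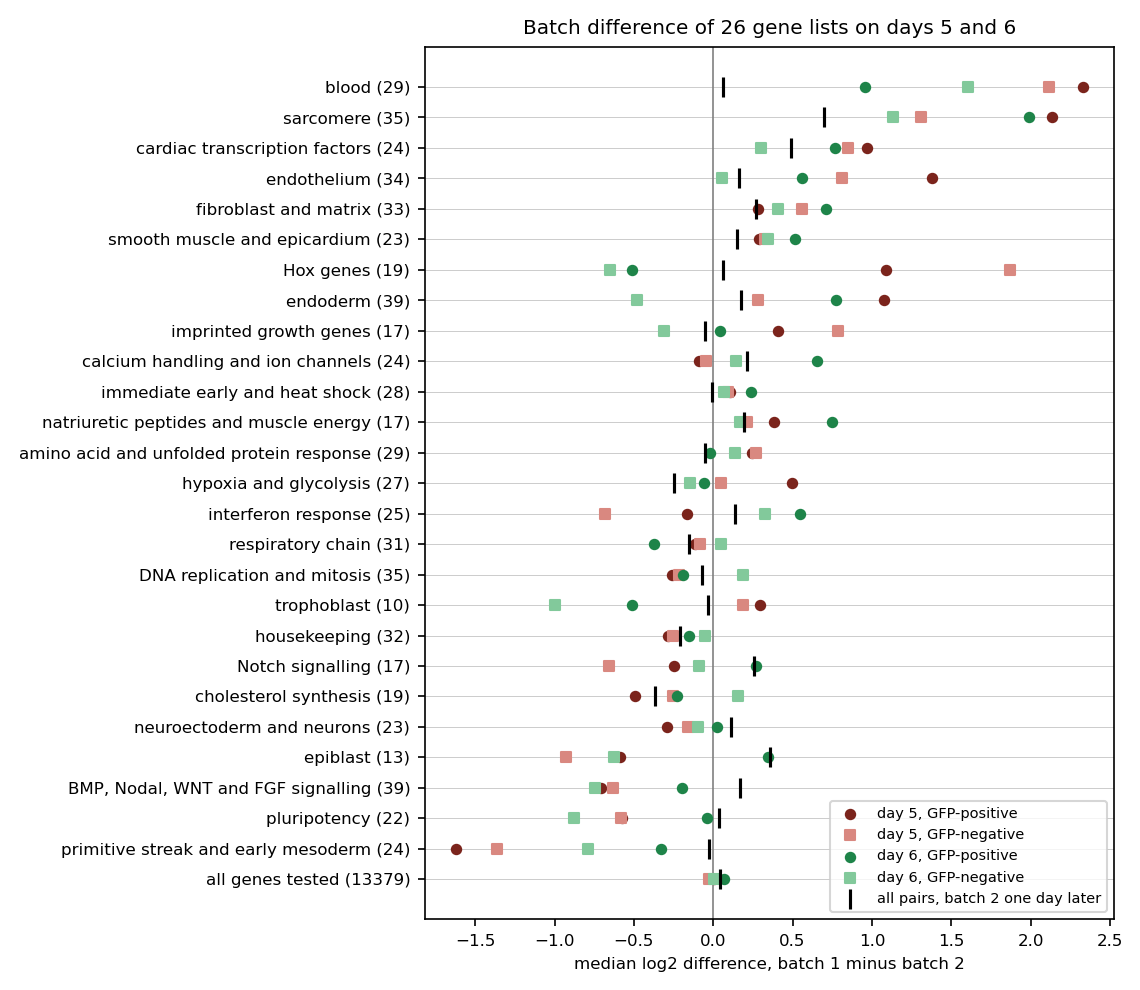
Median log2 difference, batch 1 minus batch 2, of 26 gene lists and of all genes tested, with the number of genes in parentheses. Coloured points are the 4 pairs matched by day and fraction, and black ticks are the median over pairs when batch 2 was taken one day later. The blood list runs from 0.956 to 2.33 and all genes tested from -0.030 to 0.066, and the ticks of the blood, streak and pluripotency lists lie between -0.03 and 0.06.

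On days 7 and 8 no gene passed the test. In the same limma fit 0 of 13379 genes were called (0.0%; 1940 genes had an unadjusted p under 0.05). The technical measures moved too: on these days BioB lay at 210.4 to 264.6 units in batch 1 and 195.5 to 246.7 units in batch 2, and the Gapdh ratio at 1.463 to 1.643 in batch 1 and 1.276 to 1.367 in batch 2. Their part in the loss of calls was not tested. The change in the batch difference between the early and the late days was tested in itself and was called for 304 genes (2.27%), of which 235 had the more positive difference on days 5 and 6 (1.76%) and 69 the more negative (0.516%). Of the 29 blood genes 12 were among them, and of the 35 sarcomere genes 8. Hemgn differed by 4.39 on days 5 and 6 and by -0.18 on days 7 and 8 (change 4.58 ± 0.39, adjusted p = 0.000357), and Actc1 by 3.15 and 0.58 (change 2.57, adjusted p = 0.00599). Mesp1 differed by -3.29 on the early and -0.04 on the late days (adjusted p = 0.0400). Hba-x and Tnnt2 missed the threshold for this change (adjusted p = 0.0654 and 0.0625). By list, the early and late medians were 1.65 and -0.002 for blood, 1.44 and 0.523 for sarcomere, -1.07 and 0.172 for the streak, and 0.697 and 0.318 for endothelium. The medians of other lists did not shrink, among them fibroblast and matrix (0.470 and 0.725), endoderm (0.358 and 0.428) and natriuretic and muscle energy genes (0.153 and 0.458). The called member with the largest early difference in each, chosen for that size, had a smaller late one. The early and late values were 4.01 and 0.75 for Col3a1, 3.97 and 1.84 for Afp, and 2.25 and 0.56 for Esrrg. With the filter on the arrays of days 5 and 6, the early natriuretic median was 1.07 over 10 genes. The count of 304 lay between 111 and 412 in the fits that each left out 1 of the 16 arrays.

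The difference was not the same on both early days. Each batch gave 1 GFP-positive and 1 GFP-negative array a day, so the tests of this change and of single days take their error from the sorted fractions, which may share a culture, and averaging the fractions would leave no replicate. Across genes the differences of the GFP-positive and GFP-negative pair correlated with r = 0.653 on day 5 and 0.4 on day 6, as a description of arrays that share a day. The difference changed between day 5 and day 6 for 172 genes (1.29%), 129 with the more positive difference on day 5 (0.964%) and 43 with the more negative (0.321%). Hbb-bh1 differed by 6.80 on day 5 and by -0.11 on day 6 (adjusted p = 7.41e-07), Hba-x by 8.55 and 2.18 (adjusted p = 6.60e-07) and Afp by 7.21 and 0.74 (adjusted p = 0.00163). Mesp1 (-4.75 and -1.82, adjusted p = 0.0187) and Tbx6, a factor of paraxial mesoderm (-2.93 and 0.27, adjusted p = 0.0378), moved in the opposite sense. For Myl7 the gap was wider on day 6, with 0.46 on day 5 and 2.22 on day 6 (adjusted p = 0.0355). The count lay between 51 and 97 whichever of the 8 early arrays was left out.

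Hox genes, which pattern the body axis and switch on in sequence, turned over between the days. The list median over 19 genes was 1.09 and 1.87 in the GFP-positive and GFP-negative pair of day 5 and -0.510 and -0.650 in those of day 6, and 7 of the 19 had a called change. Hoxb6 had 269.3, 252.4, 85.5 and 92.7 units in batch 1 and 14.9, 8.8, 382.8 and 299.2 units in batch 2, a difference of 3.86 on day 5 and -1.85 on day 6 (adjusted p = 0.000156). Batch 2 thus held its highest Hoxb6 on day 6, and its day 7 signals of 63.7 and 69.4 units were below the batch 1 signals of day 6. Hoxb1, the most 3' gene of its cluster and one that switches on early, was lower in batch 1 in 4 of 4 pairs (-2.09 ± 0.23, adjusted p = 0.000424), and the Hox cofactor gene Meis1 was higher (2.06 ± 0.28).

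The interferon genes Usp18 and Oas1a changed the other way, with less signal in batch 1 on day 5 and more in batch 1 on day 6. Usp18 had 8.4, 14.6, 51.3 and 50.8 units in batch 1 and 96.4, 98.1, 10.3 and 30.6 units in batch 2 (change -3.72, adjusted p = 0.0270). For Oas1a the change was -3.38 (adjusted p = 0.00666).

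No gene was called for a batch difference that depended on the GFP fraction (0 of 13379, 0.0%; 654 genes had an unadjusted p under 0.05). In simulated data that test recovered 42% of genes given a 4-fold change and 2% of genes given a 2-fold change. The comparison of batches recovered 95% and 64%. The separate estimates in GFP-positive and GFP-negative cells were 5.32 and 4.49 for Tnnt2, 4.71 and 2.92 for Myh6, and 5.39 and 5.34 for Hba-x. For Myl3 they were 5.22 and 2.06. These genes belong to the 15 highest, which had to be higher in batch 1 in 4 of 4 pairs, so their sign was fixed by that choice.

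The arrays were next set against every day of the other batch, a step chosen after the data had been seen. Batch 1 GFP-positive cells of day 5 differed by 2-fold or more from batch 2 cells of day 5 in 1828 genes (13.66%), from those of day 6 in 687 (5.13%) and from those of day 7 in 812 (6.07%). Batch 1 GFP-positive cells of day 6 differed in 1245 genes from batch 2 cells of day 6 and in 432 from those of day 7. In the GFP-negative cells the counts were 1548 genes against day 5, 578 against day 6 and 1568 against day 7 for batch 1 cells of day 5, and 1263 genes against day 6 and 507 against day 7 for those of day 6. Batch 1 cells of day 7 were also nearer to batch 2 cells of day 8 than of day 7, with 723 against 842 genes in GFP-positive and 702 against 1118 in GFP-negative cells. Batch 1 cells of day 8 differed from batch 2 cells of day 8 in 377 genes in the GFP-positive and 1519 in the GFP-negative fraction, and no batch 2 array of a later day was used here. The closest array of batch 2 was therefore the one labelled 1 day later for all 4 batch 1 arrays of days 5 and 6.

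**Figure D4:**
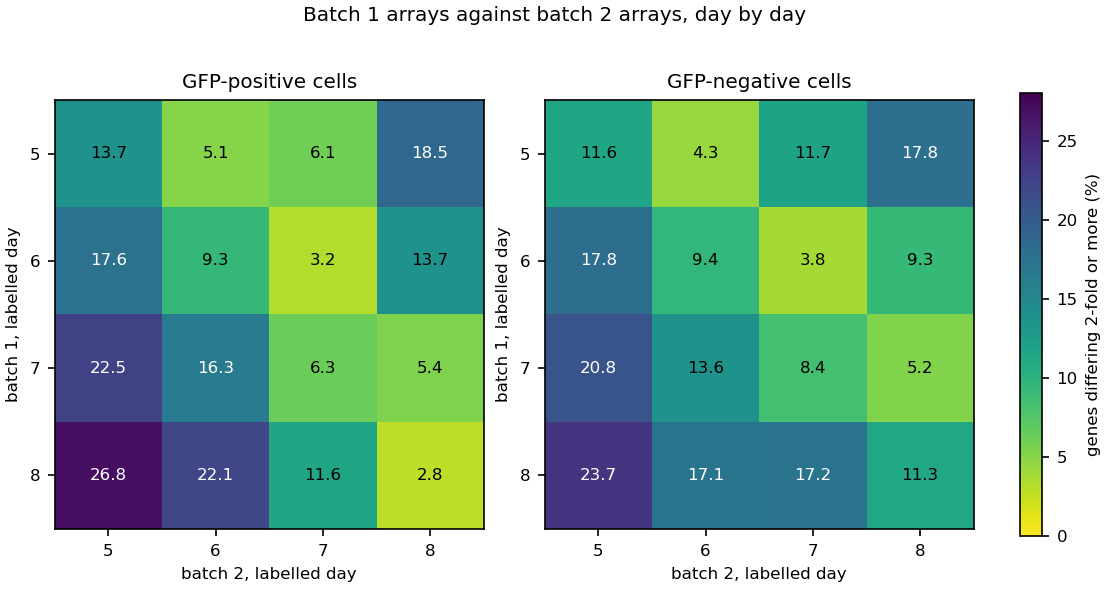
Percentage of 13379 genes whose signal differed by 2-fold or more (on the log2(signal + 6.8) scale) between each batch 1 array (rows) and each batch 2 array (columns) of the same GFP fraction. The smallest values for batch 1 on day 5 and day 6 lie in the column 1 day later, 5.1% and 3.2% in GFP-positive and 4.3% and 3.8% in GFP-negative cells.

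With the 8 arrays of days 5 and 6 alone, 496 genes were called at the same labelled day (3.71%; unadjusted p under 0.05 for 2935 genes). Batch 1 on days 5 and 6 against batch 2 on days 6 and 7, fitted in the same way, gave 8 calls (0.0598%), 1 higher and 7 lower in batch 1 (unadjusted p under 0.05 for 2330 genes). Batch 2 taken 2 days later gave 42 (0.314%), 13 higher and 29 lower (unadjusted p under 0.05 for 2171 genes). The median size of a difference, whatever its sign, was 0.221 at the same day, 0.15 with batch 2 taken 1 day later and 0.216 with 2 days. The call count 1 day later was 215 when array medians were set equal, 183 of them lower in batch 1, and lay between 0 and 10 in the fits that left out 1 array.

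The lists kept different medians after this step. With batch 2 taken 1 day later, the median was -0.03 for the streak list, 0.04 for pluripotency and 0.06 for blood, against -1.07, -0.604 and 1.65 at the same day. It was 0.698 for sarcomere genes and 0.488 for cardiac transcription factors, against 1.44 and 0.738. Some lists crossed 0, among them epiblast (-0.424 to 0.355), BMP, Nodal, WNT and FGF (-0.596 to 0.168) and Notch (-0.180 to 0.256). Others moved further below 0, among them cholesterol synthesis (-0.186 to -0.368) and hypoxia and glycolysis (-0.011 to -0.245). Among single genes Mesp1 stood at -0.42 ± 0.22, Hba-x at 0.53 ± 0.23, Col3a1 at 0.62 ± 0.25, Tnnt2 at 1.37 ± 0.41, Myh6 at 1.75 ± 0.55 and Tbx5 at 1.62 ± 0.35. None of these 6 was called, and the difference in closing between lists was not tested. With batch 2 taken 2 days later the sarcomere median was -0.244 and the blood median -0.707, and the macrophage genes Ptprc (-2.32) and Csf1r (-2.09) were lower in batch 1 (adjusted p = 0.0251 for each).

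The time direction of the called genes was read from arrays outside days 5 and 6. Of the 804 genes higher in batch 1, 63.4% had more signal on day 8 than on day 7, against 39.9% of the 313 lower genes and 59.8% of all genes tested. In selected cardiomyocytes 43.4% of the higher and 43.8% of the lower genes had more signal than in day 8 GFP-positive cells, and 41.8% of all genes did.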

How the data were processed

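RNA from sorted cells was amplified in 2 rounds with a T7 oligo dT primer and hybridised to mouse Affymetrix arrays, per the labels' protocols. The deposited values are linear signal intensities from GCOS 1.4 and the MAS5 algorithm as run by the authors, per the submitters' processing notes, and the values show each array scaled to a 2%-trimmed mean of 150. Probe sets with 1 symbol were used: 9160 of 45101 had none and 932 had several. A gene with several probe sets was represented by its brightest one on average, which left 18193 genes. Probe sets with _x_at in the name were passed over, even if brighter, where the gene had another. The test took the 13379 genes that reached 22.5 units, the overall median, on 2 or more of 18 arrays. Values were taken as log2(signal + 6.8), the offset being the 25th percentile.

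The difference between batches was fitted with limma 3.58.1 (R 4.3.3; lmFit and eBayes with a variance trend) on the 16 sorted arrays, with a mean for each of the 8 pairs of day and fraction, a batch term for days 5 and 6 and another for days 7 and 8. Separate models gave a batch term per fraction and per day. P-values were adjusted by Benjamini-Hochberg over all genes tested, with a threshold of 0.05. On simulated data the test of batches recovered 64% of genes changed by 1 and 95% of genes changed by 2 on the log2 scale. The pairing comes from the day and fraction in the titles. The number of arrays limits the precision.

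The comparison, its 26 gene lists and the rules for named genes were chosen with earlier results of these data known. The genes named are the 15 highest and 15 lowest called with the same sign in 4 of 4 pairs (leaving out clone and model names), up to 4 called members of each list with the largest difference or otherwise the 2 with the lowest p, a set of 22 lineage markers, and the 10 highest and lowest of the other comparisons; further list members were named to complete a list's calls or as cell type markers. Alternatives are in the closing section. The comparisons with batch 2 taken 1 or 2 days later were added after seeing the data.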

Additional observations from a re-analysis of the deposited data

Results flagged for a closer look

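The median of the DNA replication and mitosis list in the GFP-negative pair of day 6, 0.189, stood apart from the other 3 pairs, which lay at -0.262 to -0.192. The gap passed Dixon's 95% critical value for 4 values. It was the only one of 26 lists and 103 named genes to do so, and chance alone marks about 1 in 20 groups.

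The batch difference itself changed between the early and the late days for 304 genes and between day 5 and day 6 for 172 genes, by limma tests of those changes. The median of the immediate early and heat shock list was positive in all 4 pairs of days 5 and 6 (0.067 to 0.235) and negative in all 4 pairs of days 7 and 8 (-0.155 to -0.018, with a median over genes of -0.027). This last difference was not tested.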

How the results depend on the processing

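The 1117 calls between batches on days 5 and 6 became 765 with the mean of all probe sets of a gene and 734 without a variance trend. They became 496 with the 8 early arrays alone, 329 with the fractions averaged and 310 on day 6 alone. In GFP-positive cells alone there were 406, in GFP-negative cells alone 130, and when 1 array was left out 390 to 1016. Without the pairing of day and fraction (no replicate block) 47 genes were called. A random block for day and batch had a correlation of -0.019. With batch 2 taken 1 or 2 days later, 8 and 42 genes were called. The 1-day count was 15 after quantile normalization, 215 with equal array medians and 0 to 10 with 1 array left out, and the count from 8 arrays alone was 93 to 213. The 304 genes that changed between early and late days became 190 with the mean of all probe sets, 150 without a trend, 541 with array weights, 512 with all 18 arrays and 111 to 412 with 1 array left out. The 172 genes that changed between day 5 and day 6 became 272 with equal medians, 96 with the mean of all probe sets, 59 without a trend and 51 to 97 with 1 array left out. The count for GFP fractions was 0 throughout.

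Of 103 named genes 98 were called, and 57 were called in every fit that left out 1 array. Those 8 fits amount to 1 check for each of the 4 pairs. The sign turned on day 6 alone for Hbb-bh1 (-0.114) and Pecam1 (-0.171). List medians changed sign, by at least the SD of the 4 pair medians, for neuroectoderm on day 6 alone (0.097), for immediate early genes in GFP-negative cells alone (-0.062) and for Notch genes in GFP-positive cells alone (0.208). Smaller moves also turned the sign for Hox (-0.693), Notch (0.130), imprinted (-0.057), cholesterol (0.010) and interferon (0.388) genes on day 6 alone, trophoblast (0.270), calcium (-0.051) and hypoxia (0.222) genes on day 5 alone, endoderm (-0.023) in GFP-negative cells, interferon (0.208) and hypoxia (0.250) in GFP-positive cells, hypoxia (0.102) and respiratory chain (0.008) genes after quantile normalization and hypoxia with array weights (0.019). The sarcomere median exceeded the blood median with an offset of 1 (2.03 against 1.76), with the filter on days 5 and 6 (2.27 against 1.65), on day 6 alone (1.63 against 1.34), in GFP-positive cells alone (1.98 against 1.71), with a signal of at least 2 times the median (1.69 against 1.65) and without a day 5 GFP-negative (1.81 against 1.67) or GFP-positive array (1.66 against 1.60). The causes were not tested.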

Other observations

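Some families were looked at after the comparison with batch 2 taken 1 day later had been seen, and their values are given without a test. The median over 47 genes of cytosolic ribosomal proteins was -0.291 at the same labelled day, 36 of them lower in batch 1 in 4 of 4 pairs, and -0.307 with batch 2 taken 1 day later, when 44 lay below 0. On days 7 and 8 it was -0.041. For 15 host genes of small nucleolar RNAs the medians were -0.419 at the same day and -0.444 at 1 day later, and -0.232 on days 7 and 8. For 76 mitochondrial ribosomal protein genes they were -0.109, -0.113 and -0.145. The 7 genes called lower in batch 1 at 1 day later were Dancr, Rpl12, Rpl22l1, Rpl41, Rsrp1, Snhg3 and Taf1d, and the gene called higher was Cfap61. Rpl12 had 264.7, 313.4, 249.1 and 223.3 units in batch 1 on days 5 and 6, and 595.9 and 486.4 units on day 6 and 427.4 and 511.7 units on day 7 in batch 2. Signals of the added hybridisation controls also lay lower in batch 1 on days 5 and 6, with BioD at 834.0 to 1269.2 units in batch 1 and 1236.7 to 1508 units in batch 2, and their part in these values was not tested.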
